A study of Mus musculus with 13 samples.

Results

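The 7 genes described here encode the core of the integrated stress response in mouse. They are the 4 kinases that phosphorylate eIF2 alpha (Eif2ak1, Eif2ak2, Eif2ak3 and Eif2ak4), eIF2 alpha itself (Eif2s1) and the regulatory subunits that bring protein phosphatase 1 to it (Ppp1r15a and Ppp1r15b). They were taken by symbol from the table of gene counts, in which they are 7 of 54307 entries, and all 7 were among the 19962 genes that passed the filter on low counts. They were measured in whole brain of 13 C57BL/6 mice, 1 library per mouse, of 4 Adar genotypes. Adar encodes ADAR1, the enzyme that edits A to inosine (read as G) within double-stranded RNA, and P195A is an amino acid substitution in its Z-nucleic acid binding domain.

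In 3 mice of 42 days (2 female, 1 male) the P195A allele stood opposite a null allele (P195A/-). Their longer genotype label gives P195A for both alleles with AdarKO/+ added, without an explanation, so the short label was followed. In 4 mice (3 female, 1 male) both alleles carried P195A (P195A/P195A), with replicates 1 and 2 aged 42 days and replicates 3 and 4 aged 48 days. In 3 mice of 43 days (2 female, 1 male) a P195A allele stood beside a wild-type allele (P195A/+). The 3 wild-type mice (2 female, 1 male) were 48, 48 and 74 days old. The alleles are carried in every cell of the animal, and no treatment was given in the labels. Neither P195A/- nor P195A/+ overlapped wild type in age, so age and genotype cannot be told apart in those comparisons.

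When eIF2 alpha is phosphorylated, eIF2 can no longer be recharged efficiently by its exchange factor eIF2B, general translation falls, and a few mRNAs such as that of the transcription factor ATF4 are translated more. Each kinase reads a different stress, and the Ppp1r15 proteins end the response by removing the phosphate. Since double-stranded RNA that ADAR1 has not edited can activate PKR, the product of Eif2ak2, the pathway is a usual one to examine in Adar mutants. RNA levels do not report kinase activity or eIF2 alpha phosphorylation, neither of which was measured in these libraries.

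The P195A/- libraries held 15591470 to 18359307 gene counts, those of P195A/P195A 13539148 to 20688387, those of P195A/+ 18540118 to 21272435 and those of wild type 17891377 to 22399005. Levels are given as CPM, counts scaled to the library size. Adar RNA ranged over 196 to 204 CPM in P195A/- mice, 282 to 346 in P195A/P195A mice, 232 to 245 in P195A/+ mice and 165 to 189 in wild type. Counts per gene do not show the point mutation, and labels exchanged between whole genotypes would leave the ranges separate, so Adar RNA checks the labels only weakly. Ranges also did not overlap for 20.1% of all genes in P195A/- and 11.9% in P195A/+ against wild type. There edgeR's quasi-likelihood test gave Adar an adjusted p of 0.506 and 0.232. It gave 5.91e-05 in P195A/P195A against wild type and 0.000773 in P195A/- against P195A/P195A. Markers of neurons, astrocytes, mature oligodendrocytes, microglia and endothelial cells were all measured (5 of 5 in each list). Of 5 markers of blood leukocytes 2 passed the filter, and Cd3e, which marks T cells, was at 0 in 10 of the 13 libraries. The mitochondrial share of counts was 1.57% for P195A/- replicate 3, against 0.457 to 0.79% for the rest.

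By genotype, 0 of the 7 genes passed a Benjamini-Hochberg adjusted p of 0.05 in edgeR's quasi-likelihood test in any of the 4 comparisons. Across all genes tested 0.0351% passed in P195A/- against wild type, 0.0401% in P195A/- against P195A/P195A, 0.0501% in P195A/P195A against wild type and 0.01% in P195A/+ against wild type. The test for any difference among the 4 genotypes passed 0 of the 7 and 0.115% of all genes. DESeq2 passed 0 of the 7 as well, although it passed more of all genes: 0.847% in P195A/- against wild type, 0.26% in P195A/- against P195A/P195A, 0.0802% in P195A/P195A against wild type, 0.0952% in P195A/+ against wild type and 1.16% for any difference. At an unadjusted p under 0.05 there was 1 of the 7 (Ppp1r15b) in P195A/- against wild type, where 10.6% of all genes lay under it, and 1 (Ppp1r15b again) in P195A/- against P195A/P195A, where 6.82% did. The other comparisons had 0 of the 7, with 5.89% of all genes in P195A/P195A and 4.48% in P195A/+ against wild type. Over the 4 genotypes 1 of the 7 (Ppp1r15b) lay under it, with 8.59% of all genes. The CPM ranges of the compared genotypes did not overlap for 2 of the 7 in P195A/- against wild type (20.1% of all genes), 1 in P195A/- against P195A/P195A (6.64%), 0 in P195A/P195A against wild type (6.47%) and 0 in P195A/+ against wild type (11.9%). The 7 had a median log2 fold change of -0.04 for P195A/- against wild type (0.02 over all genes), -0.02 in P195A/- against P195A/P195A (0.00), 0.02 for P195A/P195A (0.01) and -0.01 for P195A/+ (0.00) against wild type. The first pair of comparisons shares the P195A/- libraries, and the 3 comparisons with wild type share its libraries.

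**Figure D1:**
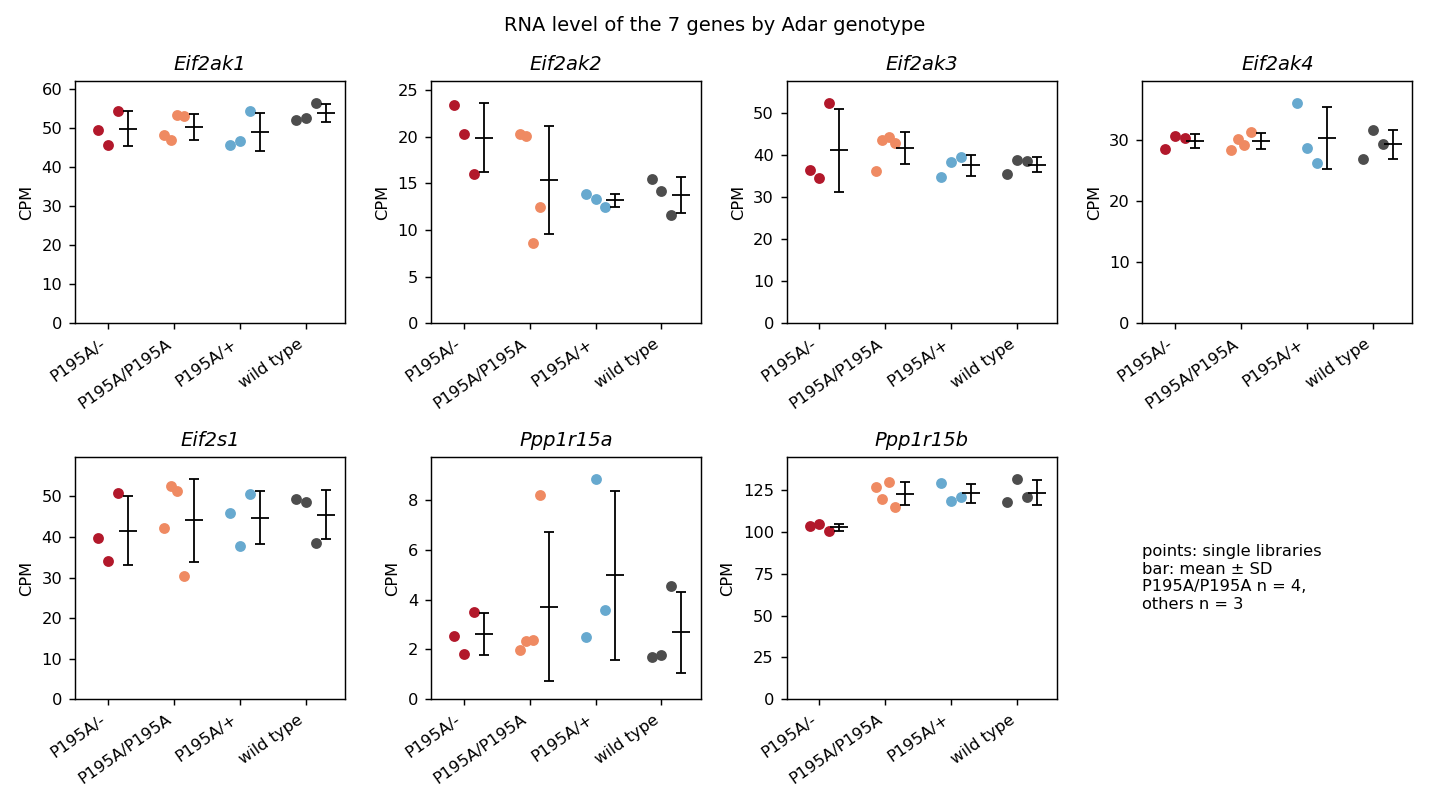
RNA level in CPM of each of the 7 genes in every library (points) with the mean ± SD of each genotype (bars; P195A/P195A n = 4, the others n = 3). The 3 P195A/- libraries lie at 101 to 105 CPM for Ppp1r15b, below all 10 other libraries, and P195A/P195A splits into a high and a low pair for Eif2ak2.

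Measured per kilobase of annotated exon, so that genes of different length can be compared, Ppp1r15b was the most abundant of the 7, at a mean level of 21.2 ± 1.84 CPM per kb (SD over 13 libraries). Eif2ak1 followed at 8.96 ± 0.663 and Eif2s1 at 8.89 ± 1.48 CPM per kb, levels that did not differ beyond their spread and that changed places when the longest transcript was taken as the length (11.7 and 12.9 CPM per kb). Eif2ak3 had 6.59 ± 0.832, Eif2ak4 3.99 ± 0.328, Eif2ak2 3.04 ± 0.835 and Ppp1r15a 1.2 ± 0.809 CPM per kb. The ranges over the libraries of Eif2ak3 (down to 5.74) and Eif2ak4 (up to 4.83) did not overlap, while those of the other neighbours from Eif2ak1 down to Ppp1r15a did. The lowest Ppp1r15b value, 18.01 CPM per kb, lay above the highest of any other member, 10.6 in Eif2s1. The kinase transcripts thus summed to 22.6 ± 1.13 CPM per kb (n = 13), of which Eif2ak1 made up 39.7%, Eif2ak3 29.1%, Eif2ak4 17.7% and Eif2ak2 13.5%.

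The 7 genes differed widely in how much they varied between mice of a genotype. Within genotypes the coefficient of variation of the CPM level was 71.4% for Ppp1r15a, 25.0% for Eif2ak2, 18.9% for Eif2s1, 13.3% for Eif2ak3, 9.39% for Eif2ak4, 7.47% for Eif2ak1 and 5.1% for Ppp1r15b. Genes of a similar CPM level had a median of 25.5% beside Ppp1r15a, 14.4% beside Eif2ak2, 10.4% beside Eif2s1 and 8.04% beside Ppp1r15b. The stress-induced phosphatase subunit was thus more variable than 98.4% of the 1311 genes of its level. The constitutive one was more variable than 10% of 1046. Among genes of their own level, Eif2s1 was more variable than 90.9% and Eif2ak2 than 86.6%. The share was 70.9% for Eif2ak3, 25.8% for Eif2ak4 and 19.9% for Eif2ak1.

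**Figure D2:**
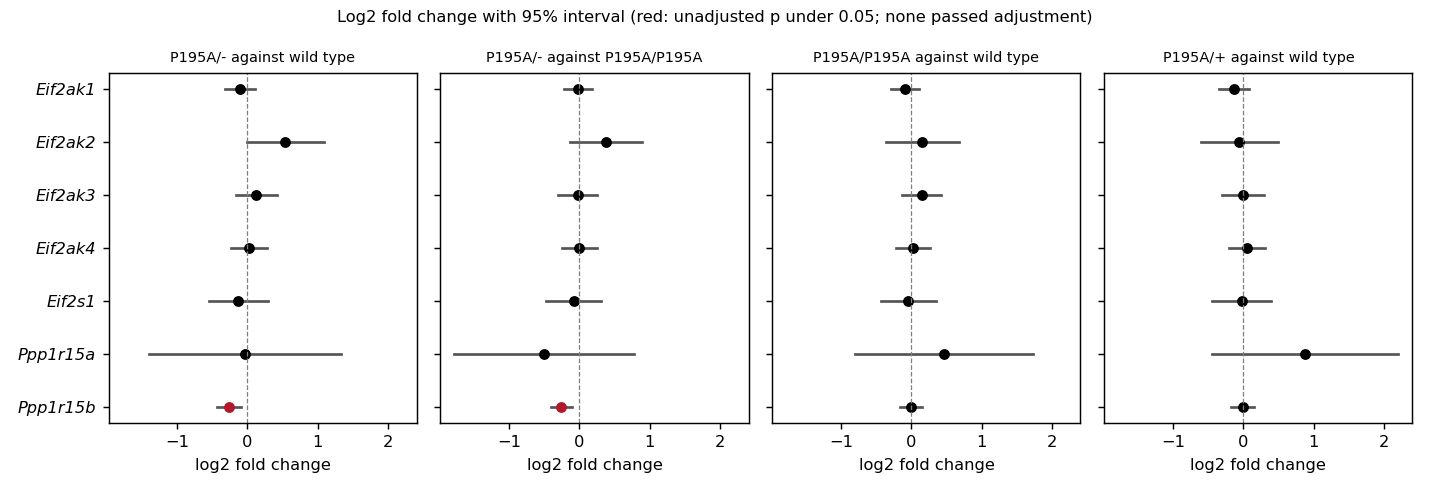
Log2 fold change (x axis) of each gene in the 4 comparisons, with its 95% interval from edgeR's quasi-likelihood fit of all 13 libraries. Red points had an unadjusted p under 0.05, which applied to Ppp1r15b in both comparisons of P195A/-, at -0.26 each; none passed after adjustment over 19962 genes.

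Eif2ak2 encodes PKR, the kinase that double-stranded RNA activates and whose own gene is induced by interferon (ENSMUSG00000024079; chromosome 17, 78852564 to 78882573, minus strand, GRCm38). It had 23.4, 20.3 and 16.0 CPM in P195A/- replicates 1 to 3. The P195A/P195A replicates had 20.2, 20.1, 8.64 and 12.4 CPM and the P195A/+ replicates 13.8, 13.3 and 12.46. Wild type had 15.4, 14.1 and 11.6 CPM. Every P195A/- library was above every wild-type library, although the lowest of the first and the highest of the second were only 0.595 CPM apart, while P195A/P195A held libraries within the P195A/- range as well as the lowest library of the series. In P195A/- against wild type 9.59% of all genes had non-overlapping ranges with P195A/- higher and 10.5% with P195A/- lower, and of the 7 genes 1 had each (Eif2ak2 and Ppp1r15b).

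PKR transcript averaged 19.9 ± 3.69 CPM in P195A/- and 13.7 ± 1.95 CPM in wild type (SD, n = 3 each), a log2 fold change of 0.54 (SE 0.257, 95% interval -0.013 to 1.08; edgeR adjusted p = 0.48). The smallest adjusted p over all alternatives was 0.192. Against P195A/P195A, which averaged 15.3 ± 5.76 CPM (n = 4), P195A/- had a log2 fold change of 0.38 (SE 0.240, interval -0.13 to 0.89; adjusted p = 0.852), and 0.18 without P195A/P195A replicate 3. P195A/P195A against wild type had 0.16 (SE 0.242, interval -0.36 to 0.67; adjusted p = 0.937), which was 0.00054 without P195A/P195A replicate 1 and 0.36 without replicate 3. P195A/+, at 13.2 ± 0.688 CPM (n = 3), had -0.06 against wild type (SE 0.258, interval -0.61 to 0.49; adjusted p = 0.999). Its share of the kinase RNA was 16.7% ± 3.90 in P195A/-, 13.1% ± 4.91 in P195A/P195A, 12.02% ± 0.888 in P195A/+ and 12.04% ± 1.91 in wild type.

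The split within P195A/P195A, which was noticed in the values, coincided with both age and age at weaning. Both mice of 42 days had 20.1 to 20.2 CPM of Eif2ak2, within the range of the 3 P195A/- mice of that age (16.0 to 23.4), and both mice of 48 days had 8.64 and 12.4 CPM, below the wild-type mice of 48 days (14.1 and 15.4). When mice of 42 days were taken alone, a subset set up after these values were known, P195A/- against P195A/P195A had a log2 fold change of -0.01 in place of 0.38 (edgeR adjusted p = 0.988). Mice of 48 days alone gave P195A/P195A against wild type a value of -0.49 in place of 0.16 (adjusted p = 1.00). P195A/P195A replicates 2 and 3, which are of different age and sex, also stood at the ends of the first principal component of all genes, which held 20.4% of the variance. Both subsets use the values in which the split was seen, so they do not test the role of age. In the P195A/P195A mice age cannot be told apart from age at weaning.

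**Figure D3:**
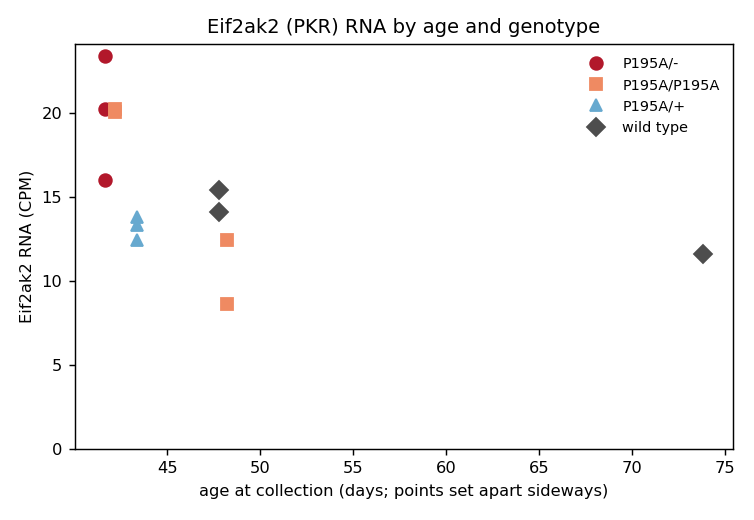
Eif2ak2 RNA (CPM) against age in days, 1 point per mouse, coloured by genotype and set slightly apart sideways. The P195A/P195A mice of 42 days stand beside the P195A/- mice of that age, and those of 48 days stand at 8.64 and 12.4 CPM, below the wild-type mice of 48 days.

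Interferon-stimulated genes give the setting for Eif2ak2. Of 25 such genes listed (Eif2ak2 not among them), 23 were tested, and edgeR passed 0 of them in each comparison. In P195A/- against wild type 23 of 23 had a higher fitted level, at a median of 0.60 on the log2 scale (all genes: 0.02). Of these, 7 had an unadjusted p under 0.05, all higher, where 10.6% of all genes lay under it in either direction. Ifit1, an antiviral RNA-binding protein gene, had 5.61 ± 1.06 CPM in P195A/- and 2.54 ± 0.818 in wild type (SD, n = 3 each; log2 fold change 1.14, edgeR adjusted p = 0.221). Ifi27l2a, under 1 CPM in both and so resting on few counts, had 0.899 ± 0.218 CPM in P195A/- and 0.182 ± 0.084 in wild type (2.24, adjusted p = 0.233). Eif2ak2, at 0.54, thus stood near the middle of this list.

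Against P195A/P195A, P195A/- had higher fitted levels in 22 of 23 of the list, with a median of 0.80. Of these, 12 had an unadjusted p under 0.05, all higher, where 6.82% of all genes lay under it in either direction. Ifit1 (1.42, edgeR adjusted p = 0.106) and Ifi44 (1.93, adjusted p = 0.121) had the smallest p. DESeq2 passed Ifi44, Ifit1 and Ifit3 in this comparison (adjusted p = 0.00771, 0.00195 and 0.0147), as did edgeR without a filter on low counts (0.0273, 0.0311 and 0.0496), and edgeR without P195A/P195A replicate 3 passed Ifit3 (adjusted p = 0.0389). Of all genes DESeq2 passed 52 (0.26%), the unfiltered fit 29 of 33544 (0.0865%) and the fit without that library 9 (0.0452%). In P195A/P195A against wild type 7 were higher and 16 lower, with a median of -0.23, where Dhx58, a gene of an RNA sensor, had 1.49 (adjusted p = 0.694) and Ifit3 -0.70 (adjusted p = 0.829). In P195A/+ against wild type 4 were higher and 19 lower, with a median of -0.33, and Oasl2 had -1.04 (adjusted p = 0.936) and Rsad2 -0.94 (adjusted p = 0.999). Eif2ak2 was on the higher side in P195A/P195A (0.16), where the median of the list was lower, and close to 0 in P195A/+ (-0.06).

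Promoter sequence was read for 6 of the 7 genes from RefSeq (GRCm38.p6), from 250 bases before to 50 bases after the start of transcription. The interferon-stimulated response element, which interferon-activated factors bind, was searched on both strands as GAAA, any 2 bases and GAAA again, and 3.44% of 32851 promoters held it. It was found in Eif2ak2, Eif2s1 and Ppp1r15a, shown here since Eif2ak2 is the interferon-induced kinase of the group (5′ to 3′ on the strand of the gene, the match in capitals).
Eif2ak2: tccgccggGAAAACGAAAcagaagag
Eif2s1: tggagcaaGAAACAGAAActtacctc
Ppp1r15a: aataaaagGAAAGGGAAAtggcacgg
In Eif2ak2 (chr17:78882537-78882562, minus strand) the match began 18 bases after the start. In Eif2s1 (chr12:78861852-78861877, plus strand) it began at -212 from the RefSeq start, which lies inside the gene as GENCODE annotates it, and in Ppp1r15a (chr7:45526471-45526496, minus strand) at -220. The element bound by ATF4 together with C/EBP factors, searched as TGATGNAA on both strands and held by 3.97% of promoters, was in none of the 7 windows of these 6 genes (Eif2ak4 has 2). A match describes letters and is not evidence of binding, and the lack of one says only that these letters are not in this window.

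Eif2ak1 encodes HRI, the kinase regulated by heme that also relays mitochondrial stress (ENSMUSG00000029613; chromosome 5, 143817788 to 143904251, plus strand). It was the most abundant kinase transcript in every library, at 49.7, 45.7 and 54.5 CPM in P195A/- and 48.3, 47.0, 53.5 and 53.1 CPM in P195A/P195A. P195A/+ had 45.8, 46.7 and 54.6 CPM and wild type 52.2, 52.8 and 56.5 CPM. All genotypes overlapped, and against wild type the log2 fold change of Eif2ak1 was -0.11 for P195A/-, -0.09 for P195A/P195A and -0.14 for P195A/+. Their 95% intervals together ran from -0.35 to 0.11 (edgeR adjusted p = 0.734, 0.901 and 0.999), and P195A/- against P195A/P195A had -0.01 (interval -0.21 to 0.19). Annotated exons of 5 of the 7 genes share bases with a gene on the opposite strand: Ppp1r15b 640 with Gm26616, Eif2ak1 487 with Aimp2 and 172 with Ankrd61, Eif2ak3 485 with Gm43292, Eif2ak2 174 with Gm26637 and 47 with n-R5s29, and Ppp1r15a 12 with Tulp2. The base counts at editing sites came from strand-specific libraries, but the sources used here do not say whether the gene counting used strand. In counting without strand, reads of such a pair cannot be told apart.

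Eif2ak3 encodes PERK, the kinase of the endoplasmic reticulum (ENSMUSG00000031668; chromosome 6, 70844515 to 70905245, plus strand). It had 36.3, 34.6 and 52.4 CPM in P195A/-, where replicate 3, the library with most mitochondrial RNA, was the highest of the series. The P195A/P195A libraries had 36.2, 43.6, 44.4 and 42.9 CPM, the P195A/+ libraries 34.8, 38.2 and 39.5 and the wild-type libraries 35.6, 38.9 and 38.5. The groups overlapped, with a log2 fold change against wild type of 0.13 in P195A/- (SE 0.139, interval -0.17 to 0.42; edgeR adjusted p = 0.776), 0.15 in P195A/P195A (SE 0.131, adjusted p = 0.891) and -0.01 in P195A/+ (SE 0.139, adjusted p = 0.999). Without P195A/- replicate 3 the first of these was -0.07. P195A/- against P195A/P195A had -0.02 (interval -0.30 to 0.25).

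Eif2ak4 encodes GCN2, which uncharged tRNA activates when amino acids run short (ENSMUSG00000005102; chromosome 2, 118388618 to 118475234, plus strand). It had 28.4, 30.6 and 30.2 CPM in P195A/- and 28.3, 30.1, 29.1 and 31.3 in P195A/P195A. P195A/+ had 36.0, 28.7 and 26.3 CPM and wild type 26.9, 31.6 and 29.3 CPM. Apart from P195A/+ replicate 1, every library lay between 26.3 and 31.6 CPM. Against wild type the log2 fold change of Eif2ak4 was 0.02 for P195A/- (interval -0.24 to 0.28), 0.02 for P195A/P195A (-0.22 to 0.27) and 0.05 for P195A/+ (-0.21 to 0.31), and the edgeR adjusted p was 0.961, 0.980 and 0.999. P195A/- against P195A/P195A had 0.00 (interval -0.24 to 0.25).

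**Figure D4:**
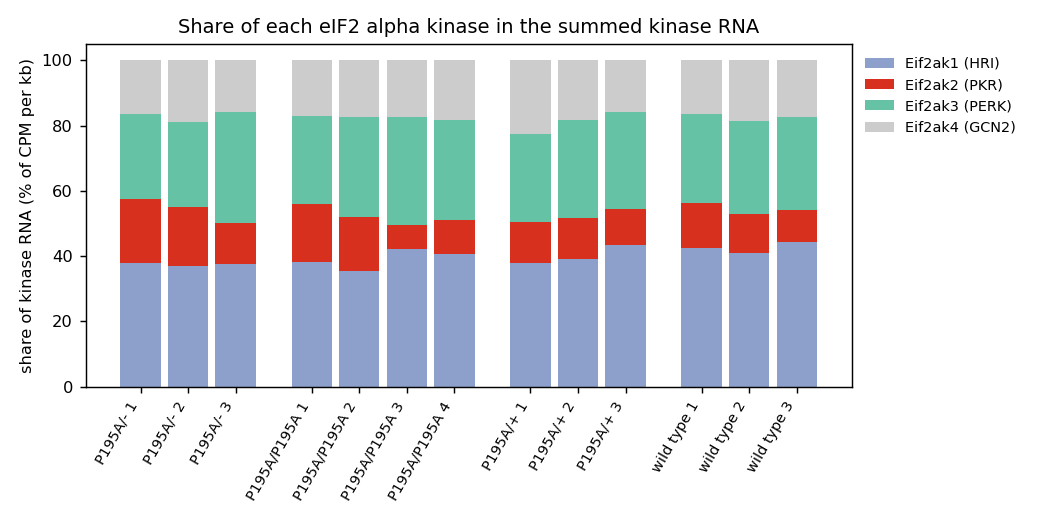
Share of each kinase in the summed RNA of the 4 kinases (% of CPM per kb of exon), 1 bar per library, grouped by genotype. Eif2ak1 takes the largest share in each library, and the Eif2ak2 share runs from 7.55% in P195A/P195A replicate 3 to 19.7% in P195A/- replicate 1.

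Eif2s1 encodes eIF2 alpha, the substrate of all 4 kinases (ENSMUSG00000021116; chromosome 12, 78861819 to 78887010, plus strand). It had 39.8, 34.0 and 51.0 CPM in P195A/- and 42.2, 52.6, 51.3 and 30.4 CPM in P195A/P195A. P195A/+ had 45.9, 37.9 and 50.6 CPM and wild type 49.3, 48.7 and 38.6 CPM. Each genotype held libraries above and below 43 CPM, and P195A/P195A alone spanned 30.4 to 52.6. The log2 fold change was -0.13 in P195A/- (SE 0.196), -0.05 in P195A/P195A (SE 0.183) and -0.02 in P195A/+ (SE 0.195) against wild type (edgeR adjusted p = 0.846, 0.973 and 0.999). P195A/- against P195A/P195A had -0.08 (interval -0.48 to 0.31), and without P195A/P195A replicates 2 and 3 this was 0.20.

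Ppp1r15b encodes CReP, the phosphatase subunit that is made constitutively (ENSMUSG00000046062; chromosome 1, 133131143 to 133139783, plus strand). It had 104, 105 and 101 CPM in the 3 P195A/- libraries. P195A/P195A had 127, 119.8, 130.3 and 115 CPM, P195A/+ had 129.6, 119 and 121 CPM and wild type had 118, 132 and 121 CPM. All P195A/- libraries were below all 10 others, whose lowest value was 115 CPM, and the other genotypes overlapped one another. The lower range of P195A/- against the 10 others, which was noticed in the values, was shared by 1.71% of all genes.

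CReP transcript averaged 103 ± 2.04 CPM in P195A/- and 124 ± 7.43 CPM in wild type (SD, n = 3 each), which is 16.6% lower in P195A/- by the means, with a log2 fold change of -0.26 (SE 0.0773, 95% interval -0.43 to -0.10). The unadjusted p of edgeR's quasi-likelihood test was 0.0037 and the adjusted p 0.265. Against P195A/P195A, at 123 ± 7.03 CPM (n = 4), P195A/- also had -0.26 (SE 0.0727, interval -0.41 to -0.10; unadjusted p = 0.0028 and adjusted p = 0.467 by edgeR). There it was the only 1 of the 7 with ranges that did not overlap, and 4.0% of all genes had a lower non-overlapping range in P195A/-. Over the main fit and every alternative, 16 and 19 fits in all, the value stayed between -0.30 and -0.21 against wild type and between -0.29 and -0.23 against P195A/P195A. The smallest adjusted p was 0.0636 and 0.147, both by DESeq2. The other comparisons with wild type had -0.01 in P195A/P195A (interval -0.16 to 0.15) and 0.00 in P195A/+ (-0.17 to 0.16).

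Markers of mature oligodendrocytes (5 of 5 measured) summed to 6452 to 6876 CPM in P195A/- and 5464 to 6059.55 in P195A/P195A. They summed to 5822 to 7059.69 CPM in P195A/+ and 5334 to 6029.95 in wild type. Markers of neurons summed to 3216 to 3680.61 CPM in P195A/-, 3273 to 3903 in P195A/P195A, 3302 to 3571 in P195A/+ and 3679.5 to 3854 in wild type. Markers of olfactory bulb neurons summed to 13.6 to 27.4 CPM in P195A/-, 40.6 to 53.9 in P195A/P195A, 16.7 to 19.0 in P195A/+ and 27.8 to 35.8 in wild type. The part of cell composition or of dissection in the values of the 7 genes was not tested. In bulk tissue fewer cells of a type and less RNA per cell cannot be told apart.

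Ppp1r15a encodes GADD34, the phosphatase subunit that stress induces downstream of ATF4 (ENSMUSG00000040435; chromosome 7, 45522916 to 45526268, minus strand). It was the scarcest of the 7, with 29 to 182 counts per library. It had 2.55, 1.83 and 3.50 CPM in P195A/- and 1.98, 2.34, 2.36 and 8.20 CPM in P195A/P195A. P195A/+ had 2.51, 8.85 and 3.57 CPM and wild type 1.69, 1.79 and 4.56 CPM. A single library stood high in P195A/P195A (replicate 4) and in P195A/+ (replicate 2), and all groups overlapped.

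The log2 fold change of Ppp1r15a against wild type was -0.04 in P195A/- (SE 0.631, interval -1.40 to 1.33), 0.46 in P195A/P195A (SE 0.584, interval -0.80 to 1.72) and 0.88 in P195A/+ (SE 0.613, interval -0.44 to 2.21), with an edgeR adjusted p of 0.99, 0.923 and 0.999. P195A/- against P195A/P195A had -0.50 (interval -1.78 to 0.78). Without P195A/+ replicate 2 the value of P195A/+ was 0.18, and without P195A/P195A replicate 4 that of P195A/P195A was -0.28. These intervals are several times wider than those of Ppp1r15b, so a difference of the size seen in that gene was not detectable in Ppp1r15a. The ratio of Ppp1r15b to Ppp1r15a per kb was 22.2 ± 7.48 in P195A/-, 24.3 ± 11.6 in P195A/P195A, 17.3 ± 10.02 in P195A/+ and 29.8 ± 13.8 in wild type, and ran from 7.06 to 38.8 over the libraries.

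The other genes of the pathway were counted from lists, in which edgeR passed 0 genes in each direction in each comparison. Of 29 tested targets of ATF4 and the stress response (31 listed), 24 had a lower and 5 a higher fitted level in P195A/- than in wild type, at a median of -0.16 on the log2 scale (all genes: 0.02). At an unadjusted p under 0.05 there were 1 higher and 2 lower of the 29, where 10.6% of all genes lay under it. Ddit3, the gene of the transcription factor CHOP, had 6.98 ± 2.18 CPM in P195A/- and 4.09 ± 0.49 in wild type (SD, n = 3 each; log2 fold change 0.77, edgeR adjusted p = 0.270). Asns, asparagine synthetase, had 76.3 ± 13.8 CPM in P195A/- and 105.7 ± 11.2 in wild type (-0.47, adjusted p = 0.294), so these ATF4 targets stood on opposite sides. In P195A/P195A 21 of 29 were lower than in wild type (median -0.16), with Ddit4 at -0.43 (adjusted p = 0.829), and in P195A/+ 15 of 29 were (median -0.07). Against P195A/P195A, P195A/- had 17 of 29 lower (median -0.03), with Ddit3 at 0.53 (adjusted p = 0.686) and Asns at -0.31 (adjusted p = 0.727).

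Among the 10 subunits and cofactors of eIF2 and eIF2B, 8 had a lower fitted level in P195A/- than in wild type (median -0.16, all genes 0.02). Of these, 2 had an unadjusted p under 0.05, where 10.6% of all genes lay under it. Eif5, whose product triggers GTP hydrolysis by eIF2, had 305.8 ± 18.8 CPM in P195A/- and 347 ± 25.9 in wild type (-0.18, edgeR adjusted p = 0.401). Eif2b1, the alpha subunit of the exchange factor, had 12.4 ± 3.84 CPM in P195A/- and 17.4 ± 2.66 in wild type (-0.49, adjusted p = 0.411). In P195A/P195A 6 of 10 and in P195A/+ 5 of 10 were lower than in wild type (medians -0.05 and 0.00). All 6 partners of the phosphatase subunits had a lower fitted level in P195A/- than in wild type (median -0.14). At an unadjusted p under 0.05 were 0 of them and 10.6% of all genes. Ppp1cc, a catalytic subunit of protein phosphatase 1, had 150.3 ± 6.06 CPM in P195A/-, 170.4 ± 7.27 in P195A/P195A and 168 ± 2.75 in wild type, with -0.16 against wild type (adjusted p = 0.485) and -0.18 against P195A/P195A (adjusted p = 0.686).

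Of 8 regulators of the kinases, 4 had a higher and 4 a lower fitted level in P195A/- than in wild type (median -0.02), and P195A/- set against P195A/P195A had 3 higher (-0.01). Against wild type, P195A/P195A had 4 (-0.02) and P195A/+ 6 (0.07) of the 8 higher. At an unadjusted p under 0.05 these comparisons had 1 lower, 1 lower, 0 and 2 higher genes, in that order. Of all genes 10.6%, 6.82%, 5.89% and 4.48% lay under it. Tarbp2, whose product TRBP binds double-stranded RNA and holds PKR in check, had 15.2 ± 0.851 CPM in P195A/+ and 11.3 ± 1.60 in wild type (log2 fold change 0.42, edgeR adjusted p = 0.999), and 0.29 in P195A/- (adjusted p = 0.479) and 0.27 in P195A/P195A (adjusted p = 0.829). Hspa5, the chaperone BiP that holds PERK inactive, had 287 ± 22.02 CPM in P195A/+ and 249 ± 16.4 in wild type (0.21, adjusted p = 0.999). Impact, an inhibitor of GCN2 that is abundant in neurons, had 411 ± 37.7 CPM in P195A/- and 474 ± 2.85 in wild type (-0.21, adjusted p = 0.358). Gcn1l1, the GCN2 activator gene, had 133 ± 16.1 CPM in P195A/- and 165 ± 26.9 in P195A/P195A (-0.31, adjusted p = 0.645).

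Deposited tables of base counts at known editing sites held 25 sites whose reference base is A on the strand of the gene, inside 6 of the 7 genes, 11 of them in the 3′ UTR of Ppp1r15b, and 0 in Ppp1r15a. The level of a site is the percentage of G among A plus G reads. Of these, 8 had enough reads and edited reads for the test (1 in Eif2ak1, 7 in Ppp1r15b). The 5 below are the Eif2ak1 site, the 3 sites of Ppp1r15b with most reads (1 to 3) and site 4, which was added after its values were seen for its level. They are shown since they are where ADAR-type editing could be followed in these genes (GRCm38, plus strand, 5′ to 3′, the edited base in capitals).
Eif2ak1 site (chr5:143903396-143903420): taggctggtctcAaactcaagagat
Ppp1r15b site 1 (chr1:133137532-133137556): atatagctcggtAgcagaggcccct
Ppp1r15b site 2 (chr1:133137549-133137573): aggcccctgcctAcatgtgcaaggt
Ppp1r15b site 3 (chr1:133137970-133137994): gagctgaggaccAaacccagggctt
Ppp1r15b site 4 (chr1:133137998-133138022): acttgctaggcaAgcgctctaccac
All 5 lie in annotated 3′ UTRs.

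The Eif2ak1 site had 64 edited of 290 reads over the 13 libraries. Its mean level was 16.8% ± 4.7 in P195A/-, 24.8% ± 4.10 in P195A/P195A, 28.1% ± 10.1 in P195A/+ and 17.1% ± 13.5 in wild type (SD over libraries, n = 3, 4, 3 and 3). By library it ran from 11.8 to 21.1% in P195A/-, 20.8 to 30.4% in P195A/P195A, 16.7 to 36.0% in P195A/+ and 4.17 to 31.0% in wild type, so all groups overlapped. With 12 to 30 reads per library the intervals were wide: wild-type replicate 2, at 4.17% (1 of 24 reads), had a 95% Wilson interval of 0.74 to 20.2%, which covers counting error only.

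Site 1 of Ppp1r15b, with the most edited reads of these sites (82 of 1363), had 3.92% ± 2.31 in P195A/-, 6.90% ± 2.42 in P195A/P195A, 6.73% ± 1.35 in P195A/+ and 5.54% ± 2.24 in wild type. Its libraries ran from 2.44 to 6.59% in P195A/-, 4.3 to 9.92% in P195A/P195A, 5.17 to 7.56% in P195A/+ and 3.36 to 7.83% in wild type, again overlapping. Site 4 (59 edited of 352 reads) had 15.3% ± 8.52 in P195A/-, 19.7% ± 9.4 in P195A/P195A, 19.7% ± 14.8 in P195A/+ and 9.15% ± 11.4 in wild type. Sites 2 and 3 were edited in 1.37% of 1463 and 1.08% of 370 reads, and neither had an edited read in more than 8 of the 13 libraries. A nearby A of the Ppp1r15b 3′ UTR, at position 133137971, had 0 edited of 541 reads, which allows a level of up to 0.555%.

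**Figure D5:**
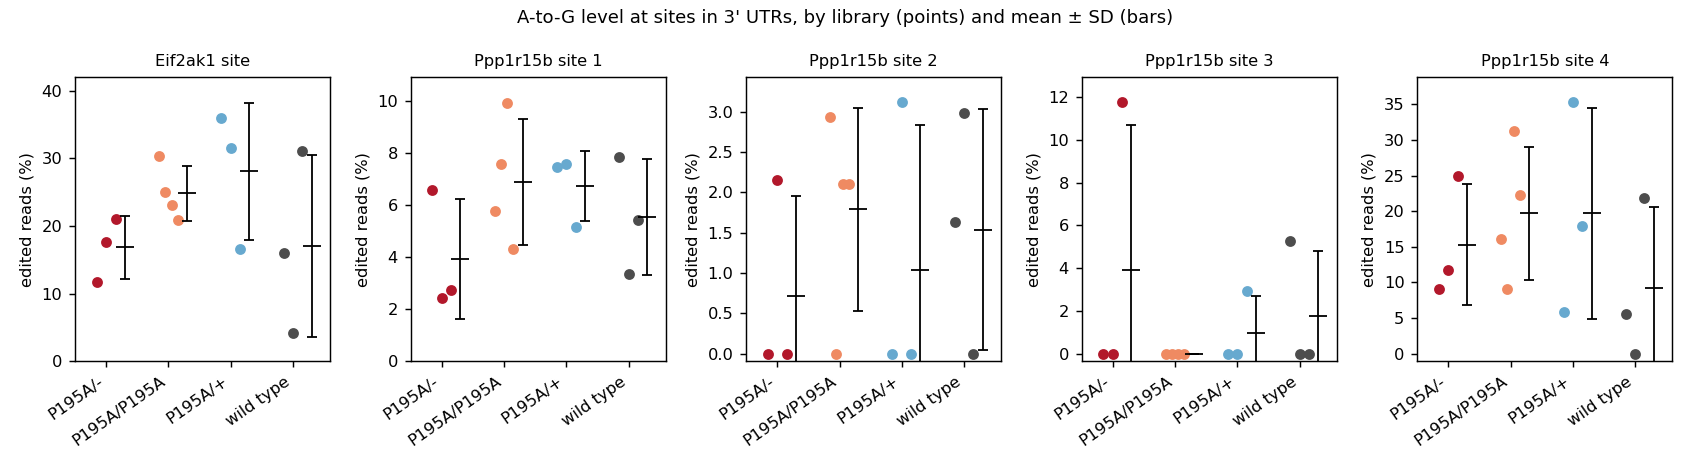
Percentage of edited reads at 5 sites in 3′ UTRs in every library (points) with the mean ± SD of each genotype (bars, not drawn below 0; P195A/P195A n = 4, the others n = 3). The groups overlap at each site, and the Eif2ak1 site and Ppp1r15b site 4 have the highest levels, up to 36.0% and 35.3% in single P195A/+ libraries.

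By edgeR's quasi-likelihood test on edited and unedited reads, 0 sites in these genes passed in any comparison, and 0 had an unadjusted p under 0.05. Across all sites tested 0.0% passed in P195A/- against wild type (0 of 14177, with 569 at an unadjusted p under 0.05), 0.0846% in P195A/- against P195A/P195A, 0.208% in P195A/P195A against wild type and 0.0143% in P195A/+ against wild type. Unadjusted, 4.01%, 7.25%, 7.99% and 6.06% of all sites lay under 0.05, in the same order. The smallest adjusted p of a site in these genes was 0.673, at Ppp1r15b site 4 in P195A/P195A against wild type (log2 odds ratio 1.27, SE 0.716), and with single libraries left out this odds ratio ran from 0.45 (without wild-type replicate 2) to 3.43 (without wild-type replicate 3). The Eif2ak1 site had a log2 odds ratio against wild type of -0.06 for P195A/-, 0.60 for P195A/P195A and 0.79 for P195A/+ (SE 0.672, 0.683 and 0.713; edgeR adjusted p = 1.00, 0.891 and 0.896). Without wild-type replicate 2 these were -0.60, 0.066 and 0.25, and without wild-type replicate 3 they were 0.84, 1.5 and 1.68.

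The kinase of double-stranded RNA had a single listed A, in the 3′ UTR of Eif2ak2 (chromosome 17, position 78854067), with 0 edited of 85 reads in the 10 libraries of the tables that list it, which allows a level of up to 3.53%. Introns of Eif2ak4 held 5 listed sites, edited in 20 of 62 reads at position 118459526, 14 of 86 at 118467214, 12 of 71 at 118426080, 12 of 48 at 118459544 and 8 of 73 at 118426057. Introns of Eif2ak3 held 6 listed sites, the most edited at position 70869283, with 14 of 25 reads. The intron site of Eif2s1 (chromosome 12, position 78877391) had 9 edited of 81 reads. These intron sites had too few reads per library for the test.

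Patterns over the 13 libraries were described by Pearson's r of the log2 CPM level with each of the 17375 genes of at least 1 CPM. The genes most like Eif2ak2 were Dbhos (r = 0.94), Gm10305 (0.91) and Gm48430 (0.90). Those most like Ppp1r15b were Arl6, Abhd13 and Fam117b (0.94, 0.94 and 0.94), and those most like Eif2ak3 were Sh3bp1 (0.91), Sec62 (0.89) and Surf2 (0.86). Eif2ak1 was closest to Pes1 (0.90), Mc4r (0.89) and Clstn3 (0.85), Eif2ak4 to Ldoc1 (0.84), Polr3c (0.81) and Cwf19l2 (0.81), Eif2s1 to Prmt6 (0.86), Cpne2 (0.82) and Ugcg (0.79), and Ppp1r15a to Mgat4a (0.87), C230096K16Rik (0.82) and Cacna2d4 (0.81). The points share library depth and genotype, and the highest of many r values is high by selection. Between the 7 genes r ran from -0.54 (Eif2ak1 with Eif2ak2) to 0.48 (Eif2ak1 with Eif2ak3), so none of them was among another's closest genes.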

How the data were processed

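The authors deposited estimated counts (expected counts) per gene. Per the submitters' processing notes, fastp 0.19.5, Salmon and edgeR were among their tools, on mm10, and their roles, other versions and the annotation are not given in the sources used. Of nonzero values, 99.5% are not whole. By gene ID, 51482 of 54307 entries matched GENCODE M21 (GRCm38). Unmatched entries held 0.678% of counts. Base counts at listed editing sites were made with JACUSA2 2.0.0-RC5, per the file headers, from strand-specific libraries; the score that the authors deposited for each site was not used.

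The 13 libraries entered 1 fit of rounded counts by edgeR's quasi-likelihood test (version 4.0.16, R 4.3.3; robust, scaled by TMM, filtered by filterByExpr), with genotype as the only term, which kept 19962 genes at a biological coefficient of variation of 19.1%. The threshold was a Benjamini-Hochberg adjusted p of 0.05 over all genes. Alternatives used limma 3.58.1 and DESeq2 1.42.0, other scalings, subsets and each library left out. CPM uses TMM-scaled totals, and log2 CPM a prior count of 2. Sites needed 10 or more A plus G reads in every library of a comparison and a pooled level of 1 to 99%, and were tested by edgeR with edited and unedited columns per library, each deposited comparison in a fit of its own. Scripts were tested on simulated data. Further tools were Python 3.11.15, pandas 2.3.3, numpy 2.4.6, matplotlib 3.10.9 and scipy 1.17.1.

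Named were the 7 genes, Adar, from each list and comparison genes among the 2 with the smallest p, the 3 genes most like each member and up to 3 testable sites with most reads per gene. Genes, lists and tests were chosen with earlier results of these data known. Same-numbered mice of different genotypes are different animals, so replicate numbers were not used as pairs. The p-values set a genotype difference against the spread between mice within genotypes, estimated over all libraries of a fit. Intervals of fold changes come from that spread; Wilson intervals and floors cover counting error only. Editing tables of single libraries were not used, since they list mostly sites with an edited read.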

Additional observations from a re-analysis of the deposited data

Results flagged for a closer look

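Ppp1r15a in P195A/P195A had 1 library apart from the other 3: replicate 4 had 8.20 CPM and the others 1.98 to 2.36 CPM, so that its gap to the nearest took 0.939 of the range, above the critical 0.829 for 4 samples. Of 12 values checked in the 4 P195A/P195A libraries, 1 was apart in this way, and chance puts about 1 in 20 there.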

How the results depend on the processing

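The count of the 7 genes that passed stayed at 0 in each comparison under each alternative, as did the count of their editing sites. Ppp1r15a had 15 fits in P195A/- and 18 in P195A/P195A against wild type, where the other genes had 16 and 19. A fit that gave it no value could not pass it. The count of pathway list genes in P195A/- against P195A/P195A was 3 with DESeq2 and 3 without a filter on low counts, in place of 0, and 0 to 1 with libraries left out; the cause was not tested. Log2 fold changes of Eif2ak2 (P195A/- against wild type) and Ppp1r15b (both comparisons of P195A/-) kept their sign throughout. The sign changes below are all of values that did not pass.

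In P195A/- against P195A/P195A, Eif2ak4 was -0.0039 with RLE scaling and -0.0035 with DESeq2. In the same comparison, mice of 42 days alone (added after seeing the data) gave Eif2ak1 0.075, Eif2ak2 -0.014, Eif2ak3 0.052 and Ppp1r15a 0.30, and the set without P195A/P195A replicates 2 and 3 gave Eif2ak3 0.060, Eif2ak4 -0.00087 and Eif2s1 0.20. In P195A/- against wild type, limma-voom gave Ppp1r15a 0.052, and females alone gave Eif2ak3 -0.071 and Ppp1r15a 0.33. In P195A/P195A against wild type, a fit of these genotypes only gave Ppp1r15b 0.0055, females alone gave Eif2ak2 -0.11, and mice of 48 days alone gave Eif2ak1 0.020 and Eif2ak2 -0.49.

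Replicate numbers were not used as pairs, since same-numbered mice are different animals. Of 18 same-numbered pairs 4 had an r of deviations over 0.1 (-0.07 to 0.23). The highest r between mice of different number was 0.156 (P195A/+ replicate 2 with P195A/- replicate 1). The highest values thus fell in same-numbered pairs, so the check does not show that same-numbered libraries share nothing. With the number as a replicate block, 0 of the 7 genes passed in any comparison; P195A/P195A against wild type had Eif2ak4 -0.0023, Eif2s1 0.090, Ppp1r15a -0.22 and Ppp1r15b 0.026, P195A/- against wild type had Ppp1r15a 0.029, and P195A/- against P195A/P195A had Eif2ak1 0.010 and Ppp1r15a 0.25.

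With single libraries left out, P195A/- against P195A/P195A ranged from -0.078 to 0.045 for Eif2ak1, -0.23 to 0.087 for Eif2ak3, -0.032 to 0.030 for Eif2ak4, -0.25 to 0.042 for Eif2s1 and -0.76 to 0.24 for Ppp1r15a. P195A/- against wild type ranged from -0.074 to 0.23 for Eif2ak3, -0.041 to 0.085 for Eif2ak4 and -0.29 to 0.59 for Ppp1r15a. P195A/P195A against wild type ranged from -0.042 to 0.095 for Eif2ak4, -0.14 to 0.097 for Eif2s1, -0.28 to 1.10 for Ppp1r15a and -0.047 to 0.056 for Ppp1r15b. P195A/+ against wild type ranged from -0.16 to 0.034 for Eif2ak2, -0.047 to 0.055 for Eif2ak3, -0.081 to 0.14 for Eif2ak4, -0.13 to 0.088 for Eif2s1 and -0.040 to 0.054 for Ppp1r15b.

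The log2 odds ratio of the Eif2ak1 site in P195A/- against wild type ranged from -0.60 to 0.84 and that of Ppp1r15b site 4 from -0.031 to 2.95. Ppp1r15b site 2 ranged from -1.03 to 0.17 in P195A/+ and from -0.28 to 1.30 in P195A/P195A, and site 3 from -1.01 to 0.24 in P195A/+. Ppp1r15a (29 to 182 counts per library) and the editing sites rest on few reads. Other values that kept their sign also moved by over 1.5 times with single libraries left out, such as Eif2s1 in P195A/- against wild type (-0.29 to -0.0078) and Ppp1r15b site 1 in that comparison (-1.08 to -0.14).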
